A study of Homo sapiens with 3 samples.

Results

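The SLC25 family of mitochondrial solute carriers was followed through 3 RNA-seq libraries of Hep-G2, an established human hepatoma cell line. Members were taken by name, as every row of the expression table whose symbol is SLC25A followed by a number, leaving out SLC25A20. This gave 44 genes of the 21572 in the table. Fold changes were computed only for members with a mean of at least 1 FPKM (fragments per kilobase of a transcript and per M, or mega, fragments mapped) over the 3 libraries, which kept 32 members and left 12 as levels only. The libraries came from a line carrying the shRNA sh#7 against FTO (TRCN0000246247), a line carrying the shRNA sh#2 against FTO (TRCN0000255402) and a control line carrying the shRNA SHC002, called a scramble in the series design. All 3 were Hep-G2 cultures at passage 21 in the same medium, and FTO encodes an RNA demethylase acting on N6-methyladenosine. The design text names sh#7 as the stronger knockdown and sh#2 as the weaker. With a single library from each line, nothing below has a replicate check or a test, and an effect of FTO cannot be told apart from an effect of a line, a hairpin or a culture.

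Carriers of this family are small proteins of the inner mitochondrial membrane, a few of them in other membranes. Each moves one solute, usually in exchange for another, between the cytosol and the matrix: ADP for ATP, phosphate, citrate, malate, aspartate, ornithine, folate, glutathione or iron. Because the inner membrane lets few polar molecules pass, respiration, the urea cycle, lipid synthesis from citrate and heme synthesis in liver cells depend on them.

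The depth, estimated from the level of single fragments in low genes, was about 42.7 to 44.3 M fragments per library. FTO was at 2.55 FPKM in sh#7 and at 5.29 FPKM in sh#2, against 9.02 FPKM in the control, the order the design text gives. Of 9 hepatocyte markers, 9 reached 1 FPKM, and their summed level was 6263 FPKM in sh#7 and was 12598 FPKM in sh#2, against 14490.4 FPKM in the control. In sh#2 the lower sum came mainly from TF and AFP, and ALB, APOA1, APOB and HNF4A were slightly above the control. Of 4 endothelial and 3 germ cell markers, 0 reached 1 FPKM. Among 6 blood markers, PTPRC, CD3E and HBB were listed at 0 in every library, while LYZ, which made up nearly all of the list, gave sums of 299 FPKM in sh#7 and of 1323 FPKM in sh#2, against 3218 FPKM in the control. Among 5 fibroblast markers COL1A2, COL3A1 and DCN were listed at 0 and the sum was 1.19 FPKM in sh#7 and was 1.79 FPKM in sh#2, against 3.77 FPKM in the control. The 4 muscle markers summed to 19.97 FPKM in sh#7 and to 6.25 FPKM in sh#2, against 4.15 FPKM in the control, most of it from CKM and ACTA1. The part of these markers in the results below was not tested. In bulk RNA, fewer cells of a kind and less RNA per cell cannot be told apart.

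No compared SLC25 member was past 2-fold on the log2(FPKM + 1) scale in any comparison, and "past 2-fold" is meant on that scale throughout. The added 1 FPKM shrinks the differences of low genes: as a plain ratio SLC25A12 in sh#2 was below 50% of control, at 47.1%, and some of the 12 members under the minimum also differ by more in their listed levels. Of the 32 compared members, 0 reached 2-fold in sh#7 against control, where 4.83% of the 11069 compared genes did. The count was 0 of 32 in sh#2 against control (background 1.23%) and 0 of 32 in sh#7 against sh#2 (background 2.97%). With backgrounds this low, few or no members would be past 2-fold in a list of this size, so the zeros say nothing particular about the family. The members' differences spanned -0.52 to 0.66 in sh#7 and -0.58 to 0.66 in sh#2. Their median was 0.10 in sh#7, beside 0.16 for all compared genes, and 0.13 in sh#2, beside 0.10 for all. In size regardless of sign, the median difference was 0.23 for members and 0.28 for all genes in sh#7, and 0.22 for members and 0.18 for all genes in sh#2.

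**Figure D1:**
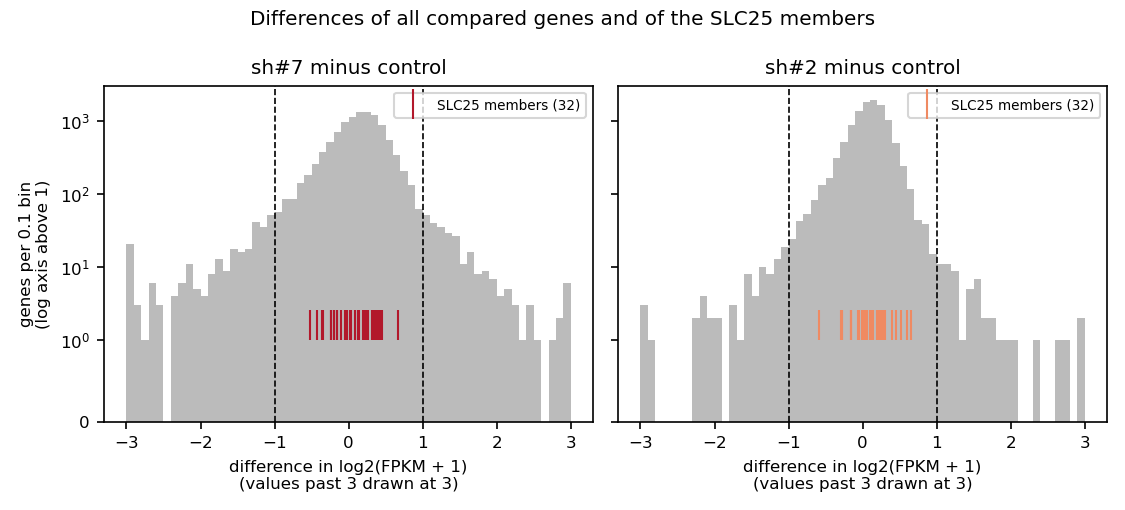
Histograms of the difference in log2(FPKM + 1) from control for all 11069 compared genes (grey, genes per bin of 0.1, log axis above 1), in sh#7 on the left and sh#2 on the right, with the 32 SLC25 members as coloured ticks placed at an arbitrary height. Dashed lines mark 2-fold, and all 32 ticks lie between them in both panels.

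At 1.5-fold, SLC25A29 was higher in sh#7 than in the control (1 of 32, background 9.61%), SLC25A16 and SLC25A33 were higher in sh#2 (2 of 32, background 2.67%), and SLC25A4 was lower in sh#7 than in sh#2 (1 of 32, background 4.55%). In sh#7, 13 members lay above the median difference of all genes and 19 below it. In sh#2, 17 lay above and 15 below. Between the lines, 10 lay above and 22 below.

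**Figure D2:**
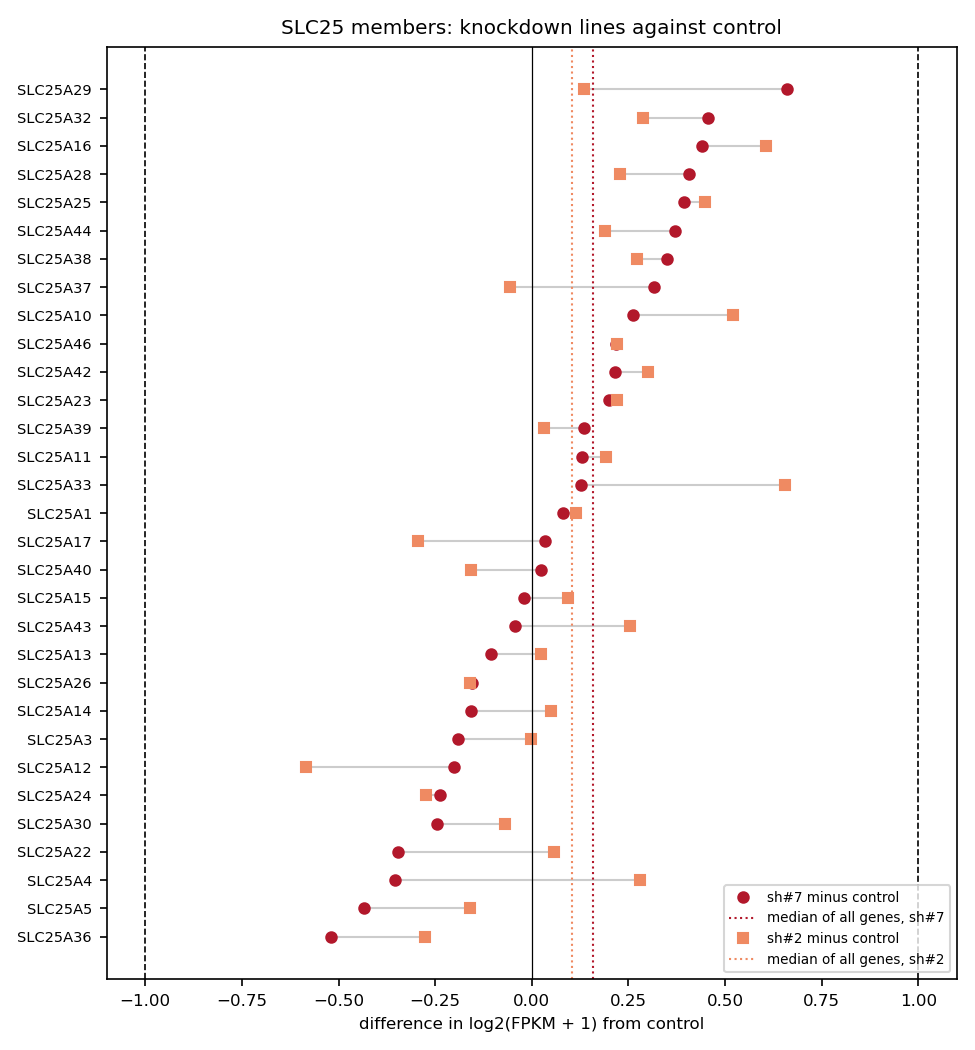
Difference in log2(FPKM + 1) from control for 31 of the 32 compared members, in sh#7 (circles) and sh#2 (squares), sorted by the sh#7 value. Dotted lines mark the median of all compared genes in each line (0.16 in sh#7 and 0.10 in sh#2) and dashed lines mark 2-fold; SLC25A29 stands highest in sh#7 at 0.66 and SLC25A12 lowest in sh#2 at -0.58.

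A few abundant carriers made up most of the family's RNA. Summed over the 44 members the level was 1253 FPKM in sh#7 (0.236% of all FPKM in the table) and 1385 FPKM in sh#2 (0.249%), against 1359 FPKM in the control (0.241%). SLC25A5, SLC25A3, SLC25A1 and SLC25A39 were the top 4 in every library and the only members at 100 FPKM or more. They held 69.2% of the family sum in sh#7 and 69.7% in sh#2, against 73.3% in the control. The median compared member was at 10.1 FPKM in sh#7 and at 11.5 FPKM in sh#2, against 11.8 FPKM in the control.

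**Figure D3:**
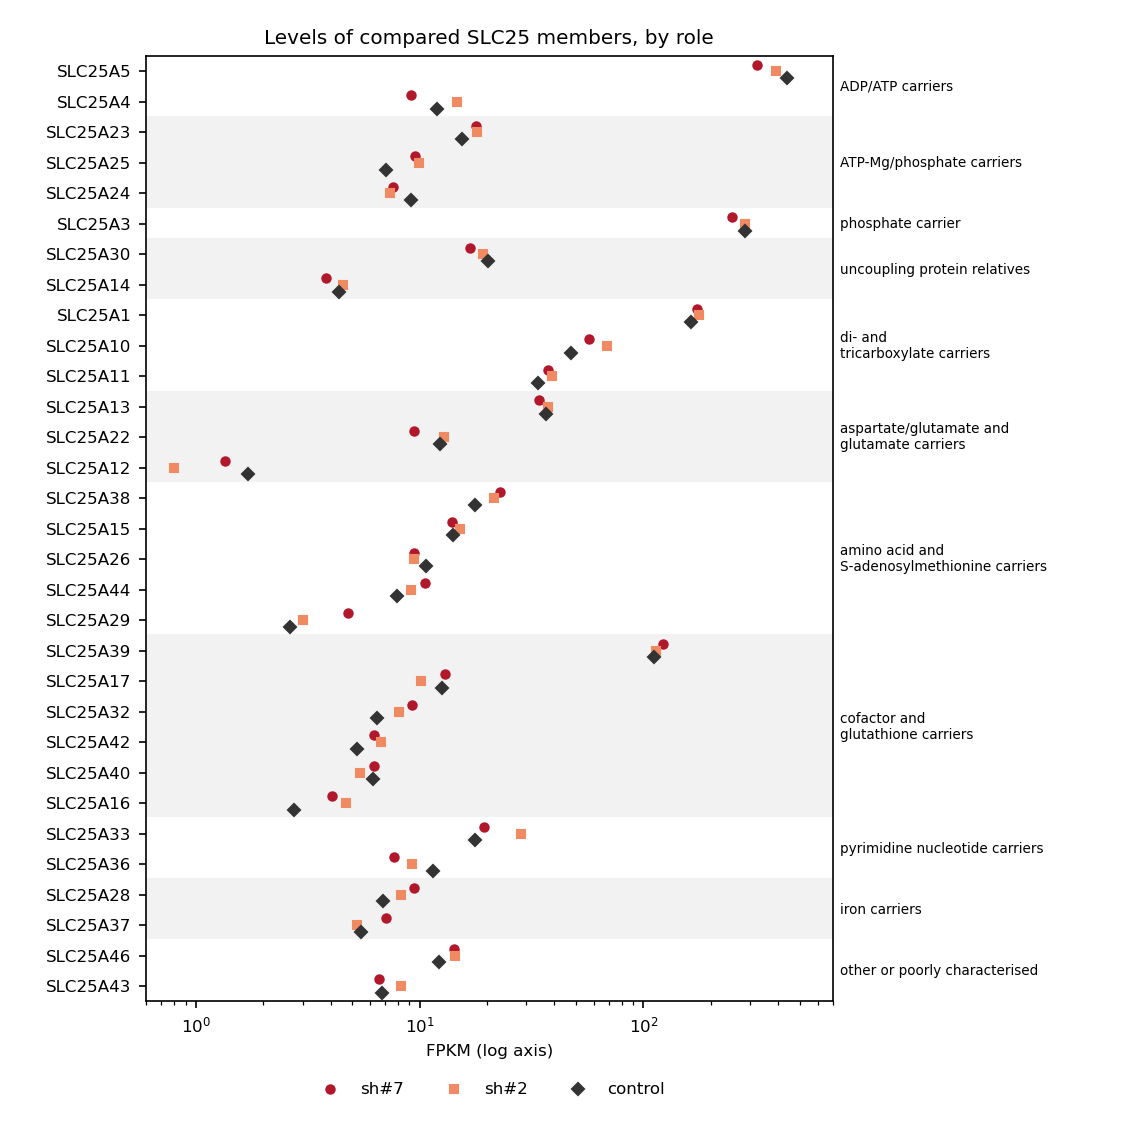
FPKM (log axis) of 31 of the 32 compared members in sh#7 (circles), sh#2 (squares) and control (diamonds), grouped by role in shaded bands. Levels run from 0.802 FPKM for SLC25A12 in sh#2 to 436 FPKM for SLC25A5 in the control.

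The ADP/ATP carriers hand matrix ATP to the cytosol in exchange for ADP. SLC25A5, the form typical of dividing cells and the most abundant member, was at 323 FPKM in sh#7 and at 390.1 FPKM in sh#2, against 436 FPKM in the control. It was lowest in sh#7 and highest in the control, and reached 73.98% of control in sh#7 (72.6 to 75.4), while sh#2 reached 89.4% (87.8 to 91.1). These ranges and all later ones are 95% intervals by the exact Clopper-Pearson method, computed on fragments estimated from the FPKM; they hold counting error only, not the spread between cultures. SLC25A4, the form of heart and muscle, was at 9.10 FPKM in sh#7 and at 14.7 FPKM in sh#2, against 11.9 FPKM in the control. The lines lay on opposite sides of the control, at 76.5% (71.8 to 81.4) in sh#7 and 123% (117 to 130.2) in sh#2. The summed ADP/ATP carriers held 26.5% of the family's FPKM in sh#7 and 29.2% in sh#2, against 33.0% in the control. GENCODE 29 names 9 pseudogenes of SLC25A5, and the sources used here do not say how reads shared with such copies were counted.

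SLC25A6, a broadly expressed ADP/ATP carrier gene of the pseudoautosomal region, was listed at 0 in all 3 libraries. The table held 18 coding genes that GENCODE 29 places in the pseudoautosomal regions shared by X and Y, and 18 of them were listed at 0 in all 3 libraries. The value of SLC25A6 is therefore given only as listed at 0, and the sums and shares above hold no contribution from it. The rank of SLC25A5 and the count of members at 100 FPKM or more rest on listed values and do not place SLC25A6. SLC25A31, the carrier of the male germ line, lies outside these regions and was also listed at 0 in all 3 libraries. The start region of SLC25A5 is shown because this gene carries the largest share of the family; it is the RefSeq sequence on GRCh38.p14, chrX:119468194-119468493, plus strand, from 250 bases before to 50 after the annotated start, with matches to the motifs named further on in capitals.
SLC25A5: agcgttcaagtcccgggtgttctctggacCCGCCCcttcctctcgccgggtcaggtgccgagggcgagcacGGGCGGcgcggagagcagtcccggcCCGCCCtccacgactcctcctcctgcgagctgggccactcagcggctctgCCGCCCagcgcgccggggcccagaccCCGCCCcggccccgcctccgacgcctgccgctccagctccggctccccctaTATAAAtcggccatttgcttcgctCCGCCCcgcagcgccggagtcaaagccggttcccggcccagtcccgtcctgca

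The other carriers of phosphate and adenine nucleotides lay on both sides of the control. SLC25A3, which brings phosphate (and copper) into the matrix, was at 249 FPKM in sh#7 and at 284 FPKM in sh#2, against 284 FPKM in the control. It was at 87.5% of control in sh#7 (84.5 to 90.6) and 99.8% in sh#2 (96.5 to 103). The calcium-regulated ATP-Mg/phosphate carriers set the size of the matrix adenine nucleotide pool, and 3 of these 4 genes were compared. SLC25A25 was at 9.57 FPKM in sh#7 and at 9.98 FPKM in sh#2, against 7.05 FPKM in the control, higher in both lines. SLC25A24 was at 7.61 FPKM in sh#7 and at 7.40 FPKM in sh#2, against 9.16 FPKM in the control, lower in both. SLC25A23 was at 17.8 FPKM in sh#7 and at 18.1 FPKM in sh#2, against 15.4 FPKM in the control. On the log2 scale SLC25A25 differed from control by 0.39 in sh#7 and 0.45 in sh#2, and SLC25A24 by -0.24 in sh#7 and -0.28 in sh#2. SLC25A41 was at most 0.349 FPKM. The relatives of the uncoupling proteins were led by SLC25A30, at 16.8 FPKM in sh#7 and at 19.1 FPKM in sh#2, against 20.1 FPKM in the control. SLC25A14 was between 3.82 and 4.56 FPKM and its intervals held 100% of control in both lines. SLC25A27 was at most 0.0471 FPKM.

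Carriers of citrate and dicarboxylates were above the control in both lines in 3 of 3 compared genes, with exceptions under other scalings. Under median-of-ratios scaling SLC25A1 went below the control in both lines and SLC25A11 in sh#7. Under upper-quartile scaling SLC25A1 went below the control in sh#7. Of all compared genes 54.2% lay above the control in both lines. Of these 3 carriers, 1 was above the median of all genes in sh#7 and 3 were in sh#2. SLC25A10, which exchanges malate or succinate for phosphate, was at 57.3 FPKM in sh#7 and at 68.8 FPKM in sh#2, against 47.6 FPKM in the control. Its level was 120.2% of control in sh#7 (115 to 126) and 144% in sh#2 (139 to 150.4). SLC25A1, the citrate exporter that feeds cytosolic lipid synthesis, was at 173 FPKM in sh#7 and at 177 FPKM in sh#2, against 164 FPKM in the control. SLC25A11, the oxoglutarate/malate carrier, was at 37.3 FPKM in sh#7 and at 38.9 FPKM in sh#2, against 34.0 FPKM in the control. SLC25A21, the oxodicarboxylate carrier of lysine breakdown, was at 0.104 FPKM in sh#7 and at 0.856 FPKM in sh#2, against 0.614 FPKM in the control, below the minimum for a fold change.

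The aspartate/glutamate carriers export aspartate from the matrix for the malate-aspartate shuttle and the urea cycle. The liver form SLC25A13 (citrin) was at 34.1 FPKM in sh#7 and at 37.4 FPKM in sh#2, against 36.8 FPKM in the control. The muscle and brain form SLC25A12 (aralar) was at 1.35 FPKM in sh#7 and at 0.802 FPKM in sh#2, against 1.70 FPKM in the control. Its level was 79.4% of control in sh#7 (64.8 to 97.8) and 47.1% in sh#2 (37.2 to 60.01). SLC25A12 was the lowest compared member and sat just inside the minimum, with a mean of 1.28 FPKM; on the log2(FPKM + 1) scale, which understates low genes, its sh#2 difference was -0.58. The glutamate carrier SLC25A22 was at 9.48 FPKM in sh#7 and at 12.9 FPKM in sh#2, against 12.3 FPKM in the control, with 76.9% of control in sh#7 (69.8 to 84.9) and 100% inside the sh#2 interval. The other glutamate carrier, SLC25A18, was at most 0.479 FPKM. The start region of SLC25A12 is shown as that of the member lowest in sh#2 against control (RefSeq, GRCh38.p14, chr2:171894195-171894494, minus strand).
SLC25A12: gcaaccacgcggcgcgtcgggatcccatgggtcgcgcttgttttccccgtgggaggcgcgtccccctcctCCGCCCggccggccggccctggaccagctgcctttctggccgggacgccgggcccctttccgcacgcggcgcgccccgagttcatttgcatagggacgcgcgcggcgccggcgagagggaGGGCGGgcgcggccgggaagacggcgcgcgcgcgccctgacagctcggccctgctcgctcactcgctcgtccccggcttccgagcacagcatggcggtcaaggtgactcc

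Among amino acid carriers, 5 of 6 were compared. SLC25A29, a carrier of basic amino acids, was at 4.76 FPKM in sh#7 and at 3.002 FPKM in sh#2, against 2.64 FPKM in the control. It was at 180.1% of control in sh#7 (142 to 229) and 114% in sh#2 (87.5 to 148), the largest difference of any compared member in sh#7. SLC25A38, which supplies glycine for heme synthesis, was at 22.8 FPKM in sh#7 and at 21.6 FPKM in sh#2, against 17.7 FPKM in the control. SLC25A44, a carrier of branched-chain amino acids, was at 10.5 FPKM in sh#7 and at 9.17 FPKM in sh#2, against 7.93 FPKM in the control. Each of these 3 was lowest in the control and highest in sh#7, an order that 37.9% of all compared genes had. The ornithine carrier of the urea cycle, SLC25A15, was at 13.9 FPKM in sh#7 and at 15.1 FPKM in sh#2, against 14.1 FPKM in the control, with 100% of control inside both intervals. The S-adenosylmethionine carrier SLC25A26 was at 9.45 FPKM in sh#7 and at 9.42 FPKM in sh#2, against 10.6 FPKM in the control. SLC25A2, the other ornithine carrier, was at most 0.0175 FPKM. The start region of SLC25A29 is shown as that of the member highest in sh#7 (RefSeq, GRCh38.p14, chr14:100306395-100306694, minus strand).
SLC25A29: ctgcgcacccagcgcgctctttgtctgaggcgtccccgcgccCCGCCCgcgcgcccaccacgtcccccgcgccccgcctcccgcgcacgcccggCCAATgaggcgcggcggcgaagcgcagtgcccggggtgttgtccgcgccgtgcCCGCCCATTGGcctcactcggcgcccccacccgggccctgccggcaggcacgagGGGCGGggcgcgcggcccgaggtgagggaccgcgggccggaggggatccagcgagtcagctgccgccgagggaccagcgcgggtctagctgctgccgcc

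Cofactor and glutathione carriers were all compared. SLC25A16, which has been linked to coenzyme A transport, was at 4.08 FPKM in sh#7 and at 4.69 FPKM in sh#2, against 2.74 FPKM in the control, higher in both lines. It was at 149% of control in sh#7 (136 to 163) and 171% in sh#2 (156 to 187). SLC25A32, a carrier of folate and FAD, was at 9.25 FPKM in sh#7 and at 8.11 FPKM in sh#2, against 6.47 FPKM in the control. The coenzyme A carrier SLC25A42 was at 6.25 FPKM in sh#7 and at 6.70 FPKM in sh#2, against 5.25 FPKM in the control. Each of these 3 genes was lowest in the control, as were 54.2% of all compared genes. Of the 7 in this group, 4 were above the median of all genes in sh#7 and 4 in sh#2. Both lines are set against the same control library. SLC25A17, a carrier of the peroxisomal membrane, was at 12.97 FPKM in sh#7 and at 10.1 FPKM in sh#2, against 12.6 FPKM in the control, lower in sh#2 at 80.0% (73.3 to 87.4). The glutathione carrier SLC25A39 was at 123 FPKM in sh#7 and at 114 FPKM in sh#2, against 112 FPKM in the control. Its relative SLC25A40 was at 6.28 FPKM in sh#7 and at 5.43 FPKM in sh#2, against 6.16 FPKM in the control. SLC25A51, the mitochondrial NAD carrier, stands in the table under its older symbol MCART1, which RefSeq pairs with it; it is no member by the rule and was at 4.64 FPKM in sh#7 and at 5.25 FPKM in sh#2, against 4.20 FPKM in the control.

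The carriers of pyrimidine nucleotides, which supply precursors for mitochondrial DNA and RNA, differed from each other. SLC25A33 was at 19.4 FPKM in sh#7 and at 28.5 FPKM in sh#2, against 17.7 FPKM in the control. In sh#2 it was at 161% of control (153 to 168). On the log2(FPKM + 1) scale this was the largest difference of any compared member in that line. As a plain percentage of control in sh#2, SLC25A16 was higher, at 171%, and SLC25A12 was at 47.1%. SLC25A36 was at 7.66 FPKM in sh#7 and at 9.25 FPKM in sh#2, against 11.4 FPKM in the control. It was lower in both lines, at 67.1% (58.2 to 77.0) in sh#7, the lowest of any compared member in that line, and 81.1% (71.0 to 92.3) in sh#2. Their start regions are printed together so that this pair with one role and unlike values can be compared (RefSeq, GRCh38.p14; SLC25A33 at chr1:9539215-9539514 and SLC25A36 at chr3:140941586-140941885, both plus strand).
SLC25A33: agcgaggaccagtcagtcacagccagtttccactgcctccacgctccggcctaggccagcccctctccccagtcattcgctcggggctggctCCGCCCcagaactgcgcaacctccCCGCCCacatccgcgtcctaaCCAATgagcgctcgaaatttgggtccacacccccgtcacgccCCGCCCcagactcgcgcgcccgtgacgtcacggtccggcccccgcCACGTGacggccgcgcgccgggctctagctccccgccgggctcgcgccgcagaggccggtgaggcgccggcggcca
SLC25A36: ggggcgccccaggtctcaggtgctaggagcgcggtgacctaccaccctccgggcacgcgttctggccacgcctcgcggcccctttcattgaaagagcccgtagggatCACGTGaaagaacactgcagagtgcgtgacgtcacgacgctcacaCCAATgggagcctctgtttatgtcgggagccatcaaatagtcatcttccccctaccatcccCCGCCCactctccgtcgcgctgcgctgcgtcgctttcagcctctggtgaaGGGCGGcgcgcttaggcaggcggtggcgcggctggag

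The capitals above mark matches, on either strand, to 5 motifs that were also searched in the start regions of the other compared members. CCGGAAG is the motif of GABP, and CACGTG is the E-box. The remaining ones are the CCAAT box (its name spells it), the GC box (GGGCGG) and the TATA box (TATAAA). None of these motifs contains another. RefSeq start regions were matched by symbol for 27 of the 32 compared members. SLC25A33 and SLC25A36 each held 1 E-box and 1 CCAAT, a likeness beside their unlike values. The E-box was in 5 of 27 member regions (18.5%), against 7.43% of all 27305 regions of this length. CCGGAAG was in 6 of 27 (22.2%), against 10.7%, CCAAT in 14 of 27 (51.9%), against 35.7%, and the GC box in 19 of 27 (70.4%), against 44.6%. TATAAA was in 2 of 27 (7.41%), against 12.0%, one of these being SLC25A5. The median G and C content was 69.3% in member regions, against 58.3% in all regions. The 2 sets are unlike, since the members had passed the minimum of 1 FPKM and the 27305 regions were not filtered by level. The part of expression level and of G and C content in the motif shares was not tested. A match describes letters in this window and is no evidence of binding.

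Iron carriers bring iron to the matrix for heme and iron-sulfur clusters. SLC25A28 (mitoferrin-2) was at 9.42 FPKM in sh#7 and at 8.22 FPKM in sh#2, against 6.86 FPKM in the control, highest in sh#7. SLC25A37 (mitoferrin-1), known for its role in red cell precursors, was at 7.09 FPKM in sh#7 and at 5.25 FPKM in sh#2, against 5.49 FPKM in the control. Its level was 129% of control in sh#7 (119 to 139.5), while the sh#2 interval held 100%. Of the remaining group, SLC25A46, an outer membrane protein that acts in mitochondrial shape, was at 14.3 FPKM in sh#7 and at 14.3 FPKM in sh#2, against 12.2 FPKM in the control. SLC25A43 was at 6.56 FPKM in sh#7 and at 8.29 FPKM in sh#2, against 6.79 FPKM in the control. SLC25A47, a carrier known from liver, sat just outside the minimum with a mean of 0.872 FPKM. It was at 0.352 FPKM in sh#7 and at 0.687 FPKM in sh#2, against 1.58 FPKM in the control, in the order of the summed hepatocyte markers, an order that 5 of the 9 markers singly did not have; their part was not tested. The other 4 of the group, SLC25A34, SLC25A35, SLC25A45 and SLC25A48, were at most 0.924 FPKM in every library.

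A ratio of related carriers within a library does not depend on how libraries are scaled. The pairs were chosen after the values were seen. SLC25A25 over SLC25A24 was 1.26 in sh#7 (1.15 to 1.38) and 1.35 in sh#2 (1.24 to 1.47), against 0.769 in the control (0.703 to 0.841). SLC25A24 was thus the higher of the pair in the control alone, and SLC25A25 in both knockdown lines. SLC25A33 over SLC25A36 was 2.54 in sh#7 (2.27 to 2.85) and 3.08 in sh#2 (2.79 to 3.405), against 1.55 in the control (1.41 to 1.71). SLC25A13 over SLC25A12 was 25.3 in sh#7 (21.6 to 29.5) and 46.6 in sh#2 (38.4 to 56.9), against 21.6 in the control (18.9 to 24.9). SLC25A5 over SLC25A4 was 35.5 in sh#7 (33.7 to 37.3) and 26.6 in sh#2 (25.6 to 27.7), against 36.6 in the control (35.1 to 38.3). The first 2 pairs set both lines apart from the control by more than counting error, while the other 2 of these 4 pairs set sh#2 apart from both other libraries. The plot of pair ratios also holds 4 more pairs, with intervals.

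**Figure D4:**
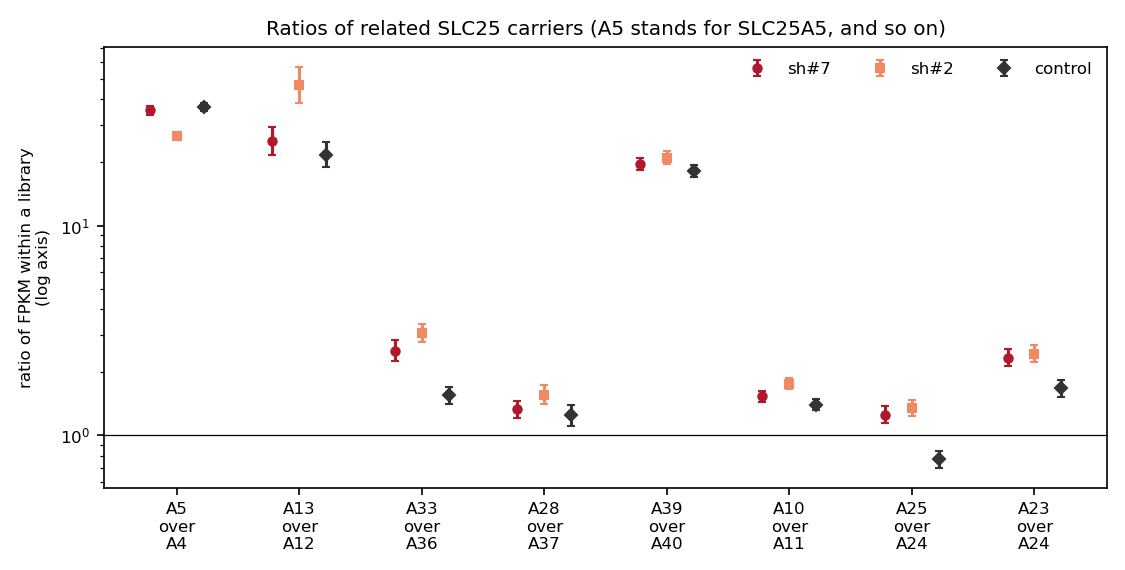
Ratio of FPKM between related carriers within a library (log axis) in sh#7 (circles), sh#2 (squares) and control (diamonds), with exact 95% intervals for counting error. The ratio of SLC25A25 to SLC25A24 lies above 1 in sh#7 (1.26) and sh#2 (1.35) and below 1 in the control (0.769).

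FTO was highest in the control, lower in sh#2 and lowest in sh#7, and the members were read against that order. The sh#2 level lay between control and sh#7 in 10 of 32 members, where 51.3% of all compared genes had that order. The level was lowest in the control and highest in sh#7 in 6 members, namely SLC25A28, SLC25A29, SLC25A32, SLC25A38, SLC25A39 and SLC25A44 (background 37.9%). The level was highest in the control and lowest in sh#7 in 4, namely SLC25A3, SLC25A5, SLC25A30 and SLC25A36 (background 13.4%). In 16 members sh#2 was the highest library (background 29.3%) and in 6 it was the lowest (background 19.4%). The count of 10 became 16 under median-of-ratios scaling and 13 under upper-quartile scaling, so it depends on the scaling. The share of all genes was not recounted there, and the 51.3% cannot be set beside the scaled counts. Under median-of-ratios scaling SLC25A39 was below the control in both lines. Both lines are set against the same control library.

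Proteins that serve the same pathways were read beside the carriers. Carrier relatives without an SLC25 symbol had 3 compared genes and 0 past 2-fold in any comparison: the uncoupling protein gene UCP2 was at 74.4 FPKM in sh#7 and at 71.3 FPKM in sh#2, against 59.1 FPKM in the control. Of 16 genes of the import machinery that inserts carriers into the inner membrane, 0 were past 2-fold in any comparison. Their median difference was 0.16 in sh#7 and 0.25 in sh#2, beside 0.16 in sh#7 and 0.10 in sh#2 for all genes. TOMM20, an import receptor, was at 77.5 FPKM in sh#7 and at 88.0 FPKM in sh#2, against 111 FPKM in the control. Among 10 compared regulators of mitochondrial biogenesis 0 were past 2-fold on the log2(FPKM + 1) scale, with medians of 0.19 in sh#7 and 0.23 in sh#2. The coactivator PPARGC1A had the lowest difference of them in both lines, at 2.68 FPKM in sh#7 and at 3.15 FPKM in sh#2, against 5.60 FPKM in the control. As a plain ratio PPARGC1A was at 47.9% of control in sh#7 (37.6 to 60.4) and 56.3% in sh#2 (45.2 to 70.3).

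Among enzymes and channels of the same pathways, 3 genes were past 2-fold lower in sh#7 than in the control (background 2.48%), and the same 3 were past 2-fold lower in sh#7 than in sh#2 (background 1.52%). The lists were chosen with earlier results of these data known, so a count above the background says nothing about these pathways. In the malate-aspartate shuttle 1 of 4 enzymes was past 2-fold lower in sh#7 and 0 in sh#2. That gene was GOT1, the cytosolic aspartate aminotransferase, at 27.5 FPKM in sh#7 and at 69.2 FPKM in sh#2, against 78.1 FPKM in the control. Its mitochondrial counterpart GOT2 was at 85.4 FPKM in sh#7 and at 90.2 FPKM in sh#2, against 85.9 FPKM in the control. In the urea cycle 1 of 5 compared enzymes was past 2-fold lower in sh#7 and 0 in sh#2. That gene was ARG1, the last enzyme of the cycle, at 0.225 FPKM in sh#7 and at 9.44 FPKM in sh#2, against 4.76 FPKM in the control. About 6.79 estimated fragments lay behind the sh#7 value of ARG1. CPS1, the first enzyme of the cycle, was at 8.97 FPKM in sh#7 and at 5.29 FPKM in sh#2, against 5.14 FPKM in the control. Among 11 other metabolite channels and carriers 1 was past 2-fold lower in sh#7 and 0 in sh#2. That was MPC1, listed as BRP44L, a subunit of the mitochondrial pyruvate carrier, at 49.4 FPKM in sh#7 and at 129.8 FPKM in sh#2, against 103 FPKM in the control. Its partner MPC2, listed as BRP44, was at 39.1 FPKM in sh#7 and at 48.1 FPKM in sh#2, against 34.4 FPKM in the control. The 4 compared enzymes of citrate export had 0 past 2-fold and a median of 0.18 in sh#7 and 0.13 in sh#2.

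**Figure D5:**
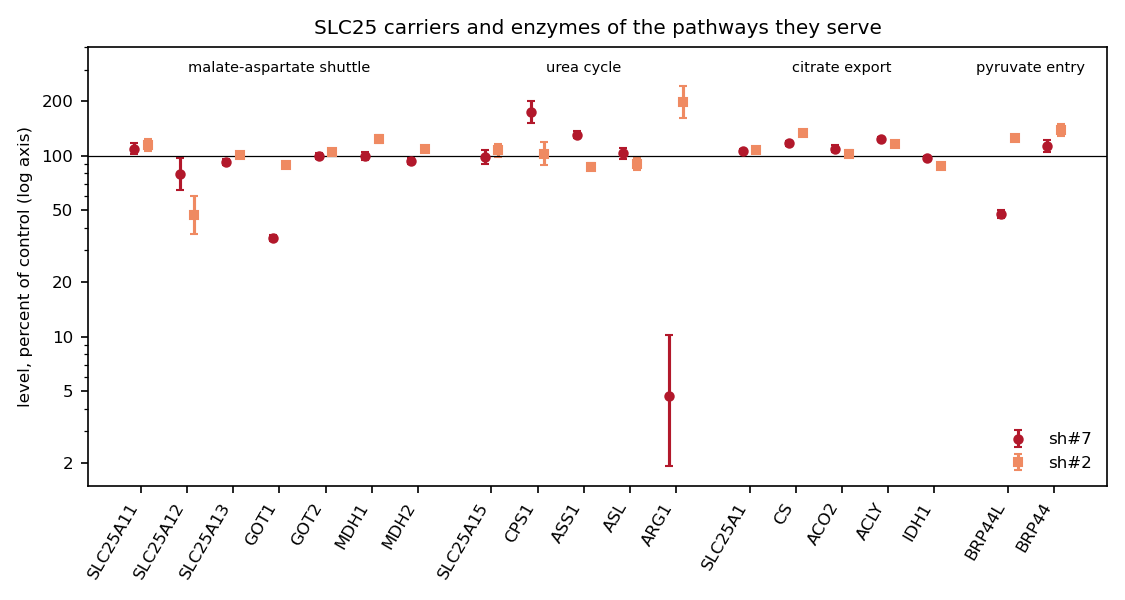
Level as a percentage of control (log axis) in sh#7 (circles) and sh#2 (squares) for SLC25 carriers and for enzymes or channels of the same pathway, with exact 95% intervals for counting error. In sh#7, GOT1 (35.2%), ARG1 (4.72%) and BRP44L (47.8%) lie far below the line at 100%. The carriers SLC25A11, SLC25A13, SLC25A15 and SLC25A1 lie near it in both lines, while SLC25A12 lies below it, at 79.4% in sh#7 and 47.1% in sh#2.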

How the data were processed

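RNA from 3 Hep-G2 libraries, 1 per group, was analysed from a single deposited table made by the authors, with 1 row per gene. The authors deposited these values as FPKM, read so from the values and the named Cufflinks since the header states no unit. Tools listed in the submitters' processing notes are STAR 2.4.0j, HTSeq and Cufflinks 2.2.1, on build hg19, with no step or annotation stated. Each FPKM is relative to a library's total, so abundant genes move the rest.

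A count model cannot be used on FPKM. Differences are log2(FPKM + 1) of one library minus another, which understates low genes. Genes averaging 1 FPKM or more were compared, and 2-fold on that scale was the call. No test is possible with 1 library per group. Depth came from the lowest step of FPKM times length in 1880 genes with a single GENCODE 29 transcript over 800 nt. Estimated fragments used the shortest coding transcript of GENCODE 29, which widens the intervals, and these lengths belong to a newer annotation than hg19. Start regions came from RefSeq by symbol, taking the first listed start. Calculations used Python 3.11.15, numpy 2.4.6, pandas 2.3.3 and scipy 1.17.1 and were tested on simulated data.

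The alternatives were a pseudocount of 0.1, no filter, a minimum mean of 5 FPKM, median-of-ratios and upper-quartile scaling and a call at 1.5-fold. The members, role groups and lists were chosen with earlier results of these data known. Members were described in full if they were among the 5 largest differences in a direction in a comparison, led their role group or sat at the minimum of 1 FPKM; others are given by level, and 1 member is counted but not reported here by name. CPS1, GOT2, UCP2, TOMM20, PPARGC1A and MPC2 were picked after their values were seen.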

Additional observations from a re-analysis of the deposited data

Results flagged for a closer look

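Among the 32 compared members, only SLC25A4 had the knockdown lines on opposite sides of the control, each by more than counting error. BRP44L and ARG1 had this pattern too, but list genes were searched only if already past 2-fold. The difference between lines was not tested. On the log2(FPKM + 1) scale, SLC25A4 stood at -0.35 in sh#7 and at 0.28 in sh#2 relative to the control, so the lines differed by -0.63. BRP44L (MPC1) differed by -1.05 in sh#7 and 0.33 in sh#2, so the lines differed by -1.38. ARG1 differed by -2.23 in sh#7 and 0.86 in sh#2, so the lines differed by -3.09. Members and those list genes past 2-fold in any comparison were searched for this pattern. Some list genes outside that search had it too. VDAC3 was at 88.3% of control in sh#7 (84.4 to 92.4) and 155% in sh#2 (149 to 161). ASS1 was at 131% in sh#7 (126 to 136) and 87.1% in sh#2 (83.4 to 91.1). The pattern was not counted over all compared genes.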

How the results depend on the processing

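No paired analysis was possible because there is a single library per line, and no replicate could be left out. The count of members past 2-fold stayed at 0 in every comparison under each pseudocount, filter and scaling run; SLC25A12 in sh#2 came to -0.998 with a pseudocount of 0.1, just short of the call. At 1.5-fold, 1 member was higher in sh#7 than control, 2 were higher in sh#2 than control and 1 was lower in sh#7 than sh#2. Median-of-ratios scaling lowered the median of all genes by 0.16 in sh#7 and by 0.10 in sh#2, and upper-quartile scaling lowered that of sh#7 by 0.11. Under median-of-ratios scaling 6 members changed sign in sh#7 (SLC25A1, SLC25A11, SLC25A17, SLC25A33, SLC25A39 and SLC25A40), 6 in sh#2 (SLC25A1, SLC25A13, SLC25A14, SLC25A15, SLC25A22 and SLC25A39) and 2 between the lines (SLC25A24 and SLC25A26), and 16 members had sh#2 between the others. Upper-quartile scaling changed the sign of 3 members in sh#7 (SLC25A1, SLC25A17 and SLC25A40) and of 4 in sh#2 (SLC25A13, SLC25A14, SLC25A22 and SLC25A39). Between the lines it changed 1 (SLC25A26), and 13 members then had sh#2 between the others. The share of all genes with that order was not recounted under these scalings. Without a filter, 22 members in sh#7, 28 in sh#2 and 16 between the lines lay above the median of all genes, which then includes the many genes near 0. For all genes, a pseudocount of 0.1 gave 394 higher in sh#7, 106 higher and 138 lower in sh#2, and 252 higher in sh#7 than sh#2. A minimum mean of 5 FPKM gave 146, 24, 49 and 82 in the same order, from a shorter list of genes. The call at 1.5-fold took in 1064 higher genes and 684 lower genes for sh#7, 295 higher genes and 301 lower genes for sh#2, and 569 higher genes and 504 lower genes for sh#7 against sh#2. Of the 2-fold calls over all genes 48.6% were higher in sh#7 and 41.2% in sh#2, which became 33.5% and 30.7% under median-of-ratios scaling. The shares of the ADP/ATP carriers hold nothing from SLC25A6, so leaving it out is no check of them. Counting depth limits members with few estimated fragments most, such as SLC25A12, with 106 in sh#2, and SLC25A29, with 109 in the control.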
